A study of Mus musculus with 12 samples.

Results

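The genes described here follow the making of new neurons in the adult dentate gyrus, from the stem cell through the dividing progenitor to the newborn granule neuron. They are 34 named genes of the 52636 in each count table, matched by mouse symbol, and all 34 were found. By role, 6 mark stem and progenitor cells, 4 are transcription factors of intermediate progenitors and neuroblasts, 10 are structural, guidance and surface genes of newborn neurons, 6 act in DNA replication, and 8 are cyclin, kinase and mitosis genes.

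The dentate gyrus keeps a pool of radial glia-like stem cells in its subgranular zone throughout life. These cells give rise to dividing intermediate progenitors, which leave the cell cycle, switch on doublecortin as immature neurons and mature into granule cells. A division is prepared by loading MCM helicases and the clamp PCNA onto DNA in S phase and is completed with mitotic cyclins, topoisomerase and kinetochore proteins, so transcripts of both steps are used as signs of dividing cells. Follistatin, encoded by Fst, traps activins outside the cell so that they cannot reach their receptors, and activin signalling has been tied to granule cell function.

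RNA of dissected dentate gyrus from C57BL/6 mice was sequenced in bulk in 4 groups of 3 libraries. The KO group is the Fst knockout and the WT group is wild type. The Fst vector group was given AAV9-CB::Fst, an adeno-associated virus that delivers Fst, and its label calls it OE (overexpressing) without a genotype. Its counterpart, the GFP vector group, is KO given AAV9-CB::GFP, so both KO and GFP vector mice carry the knockout. The sources used here give neither the age, nor how the knockout was made, nor the cells in which the vector is active. The design note can be read as pooled mice in each library, so p-values measure only the spread between these libraries. Libraries are named as in the titles (M for male, F for female), and the descriptions give another sex for F1 and M2 of both KO and WT.

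Fst had 2, 4 and 2 counts in the KO libraries, against 34, 33 and 51 in WT, and 2078, 1870 and 1497 in the Fst vector libraries, against 0, 1 and 0 with the GFP vector. Totals ran from 8081824 to 11331337 counts, so that 3 counts, the floor used here, equal 0.265 to 0.371 CPM (counts scaled to library totals of 1000000). Prox1, the transcription factor that defines granule cells, averaged 425.9 CPM in KO and 440.2 in WT, and 282.5 CPM in the Fst vector group and 350.5 in the GFP vector group. Ribosomal RNA took 0.575 to 0.679% of counts in KO M2, WT F1, Fst M2, Fst F and GFP M2, and 0.00919 to 0.0211% in the other 7 libraries. GFP F stood apart among the vector libraries: Gfap, the intermediate filament of astrocytes, was at 612.8 to 1033.3 CPM with the Fst vector, against 566.3 and 1554.6 CPM in GFP M1 and M2 and 4863.7 CPM in GFP F.

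The 34 genes covered a wide range of levels. Per length of transcript, as TPM (length-scaled counts that sum to 1000000 in each library), Stmn1, the microtubule regulator stathmin, stood highest with a mean of 281.3 TPM over the 12 libraries and a range of 184.9 to 510.6. Tubb3, neuronal beta-tubulin, followed at 254.8 TPM (171.9 to 475.8), so the ranges of both genes overlapped. Islr2, a leucine-rich repeat membrane protein of growing axons, stood at 151.3 TPM and Hopx, a homeodomain protein of quiescent stem cells and astrocytes, at 100.8 TPM. Genes known for newborn or dividing cells were spread over this range. Pcna, the replication clamp, stood at 75.6 TPM and the transcription factor Neurod1 at 67.9 TPM. Ccnd2, a cyclin, stood at 35.4 TPM and Mcm6, a helicase subunit, at 30.8 TPM. Several others lay far lower. Dcx, which encodes doublecortin, stood at 6.33 TPM, Mki67, the proliferation antigen Ki-67, at 3.42 TPM, Igfbpl1, a secreted binding protein of newborn neurons, at 2.39 TPM and Top2a, the topoisomerase of dividing cells, at 0.694 TPM. Cdk1, the mitotic kinase, was lowest at 0.139 TPM (0 to 0.765), with Ccnb1, its partner cyclin B1, beside it at 0.159 TPM (0 to 0.372). In bulk tissue, fewer cells of a type and less RNA per cell cannot be told apart.

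In the KO dentate gyrus, 4 genes of newborn neurons and mitosis stood below WT: Dcx, Igfbpl1, Draxin and Top2a. Their levels were 0.376 to 0.752 of WT, and in each of them every KO library lay below every WT library. The 6 DNA replication genes had log2 changes of -0.13 to 0.07. Of the 34 genes, 30 passed the filter on low counts, which Eomes, Tfap2c, Cdk1 and Ccnb1 did not. None of the 30 passed edgeR's quasi-likelihood test after Benjamini-Hochberg adjustment over all genes, in a comparison that called 4 of 14919 genes (0.0268%). At an unadjusted p under 0.05, 4 of the 30 were lower in KO, against 3.01% of all genes tested, and 0 were higher, against 2.95%. The list was chosen with earlier results of these data known, so its shares, here and below, cannot be read as an excess. Of these 4 genes, Draxin passed the filter mainly through WT, and Top2a reached 10 counts in 3 WT libraries but only 2 KO libraries. With a filter on the mean over all 6 libraries (at least 10 counts), chosen after seeing the data, 4 of 30 were again lower, against 3.02%, and 0 higher, against 2.89%. DESeq2 gave the same counts, with 0 genes of the list called and 4 past the unadjusted threshold. Of the 30 estimates 22 were negative and 8 positive, with a median of -0.07 (log2) beside -0.00 over all genes.

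Dcx, on the X chromosome (GRCm38, chrX:143855842-143933311), encodes the microtubule-binding protein of migrating immature neurons. It had 16.1, 15.5 and 19.0 CPM in KO M1, F1 and M2, against 23.7, 23.9 and 20.7 CPM in WT M1, F1 and M2. All KO libraries were lower than all WT libraries, with the narrowest gap between KO M2 and WT M2. The means were 16.9 ± 1.86 CPM in KO and 22.8 ± 1.78 CPM in WT (SD, n = 3 each). Its log2 change was -0.41 ± 0.11 (SE), and the adjusted p of edgeR was 0.326 for a 95% interval of -0.65 to -0.18.

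Igfbpl1 (chr4:45809468-45826923) marks neuroblasts and immature neurons. It had 1.4, 1.07 and 2.54 CPM in the KO libraries, against 3.57, 3.11 and 4.5 CPM in the WT libraries. KO M2 was the highest of its group and still below WT F1, the lowest of WT. The log2 change was -1.14 ± 0.31 (edgeR adjusted p = 0.301), for means of 1.67 ± 0.771 CPM in KO and 3.73 ± 0.708 CPM in WT. Libraries with a low share of ribosomal RNA gave a KO to WT ratio of 0.306 (2 against 2), and those with the higher share gave 0.816 (1 against 1).

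Draxin (chr4:148098437-148130698) encodes a secreted repulsive guidance cue for growing axons. It had 1.61, 0.428 and 0.609 CPM in the KO libraries, against 2.41, 2.25 and 2.47 CPM in the WT libraries. The WT values lay close together, while KO M1 was well above the other KO libraries. The log2 change was -1.41 ± 0.40 (edgeR adjusted p = 0.36), and -2.15 without KO M1. Draxin reached 10 counts in 3 WT libraries and 1 KO library, although its mean over all 6 libraries also exceeded 10 counts. Its span overlaps Mad2l2 on the opposite strand (5.15 to 8.44 CPM), and, with no account of strand in the sources used here, reads in the overlap cannot be told apart.

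Top2a (chr11:98992943-99024189) encodes the topoisomerase that untangles chromosomes before they separate. It had 1.29, 1.18 and 0.711 CPM in the KO libraries, against 2.2, 2.04 and 2.65 CPM in the WT libraries. Every WT library exceeded every KO library. Its log2 change was -1.10 ± 0.36 with a 95% interval of -1.84 to -0.37 (edgeR adjusted p = 0.569). The ratio of KO to WT was 0.508 in libraries with a low share of ribosomal RNA and 0.349 in the others. For Dcx the same ratios were 0.712 and 0.794, and for Draxin 0.417 and 0.271.

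Eomes, the transcription factor Tbr2 of intermediate progenitors, was too low for the fit. It had 3, 0 and 4 counts in KO M1, F1 and M2, against 6, 9 and 6 counts in WT M1, F1 and M2. The groups did not overlap, although all 6 libraries were under 10 counts, and the 0 of KO F1 allows up to 0.321 CPM. Summed over libraries, 7 counts in KO against 21 in WT gave a ratio of 0.353 per total count, and the exact 95% interval, for counting error alone, was 0.127 to 0.862.

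**Figure D1:**
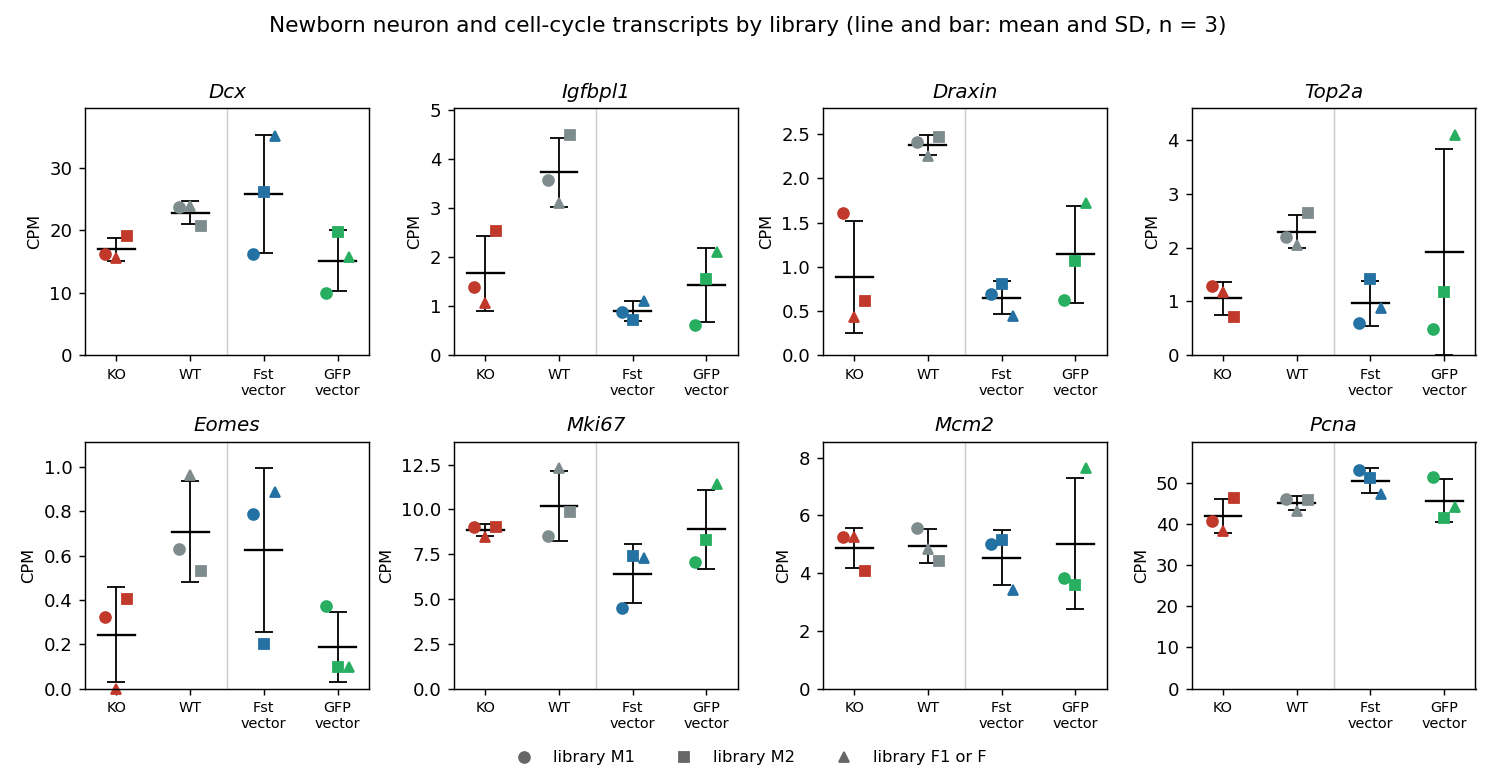
CPM (linear axes from 0) in each of the 12 libraries for 8 genes of newborn neurons and dividing cells, with KO left of WT and the Fst vector left of the GFP vector; points are libraries, lines and bars the mean and SD of 3. For Dcx, Igfbpl1, Draxin, Top2a and Eomes each KO point lies below each WT point, whereas for Mki67, Mcm2 and Pcna the points of both groups overlap.

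Of the stem and progenitor cell genes, 5 were tested and none had an unadjusted p under 0.05 between KO and WT. Their estimates were negative for 4 of the 5, with a median of -0.16. Nes, the intermediate filament nestin of neural stem cells, had 8.49, 9.96 and 6.6 CPM in the KO libraries, against 6.4, 8.26 and 6.97 CPM in WT. The groups overlapped and the log2 change was 0.23 ± 0.18. Hopx had 25.8, 29.6 and 33.6 CPM in KO, against 37.9, 28.3 and 28.0 CPM in WT, again with overlap (-0.06 ± 0.12). Emx2, a homeodomain factor of hippocampal development, ran from 23.5 to 28.7 CPM in KO and from 28.9 to 30.7 CPM in WT, a log2 change of -0.16 ± 0.10 (edgeR adjusted p = 0.933), with every KO library below every WT library. Reads of Emx2 cannot be told apart from those of its antisense gene Emx2os (9.64 to 21.7 CPM) where the genes overlap. Pax6, a factor of radial glia and early progenitors, ran from 6.01 to 8.13 CPM in KO and from 8.26 to 9.09 CPM in WT, also without overlap (-0.24 ± 0.17). Lpar1, a lysophosphatidic acid receptor on neural precursors, averaged 4.12 ± 1.09 CPM in KO and 4.78 ± 0.435 CPM in WT. Tfap2c, a factor of progenitors, stood at 22 summed counts in KO and 24 in WT, a ratio of 0.971 (0.519 to 1.81).

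Among the factors of neuroblasts, Neurod1, which drives granule cell differentiation, had 49.7, 45.7 and 49.5 CPM in KO, against 51.1, 46.9 and 52.5 CPM in WT. The groups overlapped, and the interval of its log2 change ran from -0.20 to 0.13. Sox11, a factor of immature neurons, had 41.0, 46.0 and 38.8 CPM in KO, against 43.6, 48.4 and 45.6 CPM in WT, also overlapping (-0.11 ± 0.09). Its relative Sox4 averaged 11.7 ± 2.01 CPM in KO and 11.7 ± 1.97 CPM in WT. Abundant cytoskeletal genes of neurons overlapped between KO and WT. Tubb3 averaged 91.8 ± 6.29 CPM in KO and 89.1 ± 9.85 CPM in WT, Stmn1 93.8 ± 5.74 CPM in KO and 99.8 ± 3.67 CPM in WT, and Stmn2, a stathmin of growth cones, 66.3 ± 10.5 CPM in KO and 60.6 ± 8.26 CPM in WT. Dpysl3, a collapsin response mediator protein, Elavl4, a neuronal RNA-binding protein, Islr2 and Cd24a, a surface protein of immature cells, had log2 changes of -0.02, 0.24, -0.00 and 0.10, each with overlapping groups.

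All 6 replication genes overlapped between KO and WT. Mcm2, a helicase subunit, had 5.26, 5.25 and 4.06 CPM in KO, against 5.56, 4.83 and 4.41 CPM in WT. Pcna, the sliding clamp of DNA polymerase, had 40.7, 38.3 and 46.3 CPM in KO, against 46.1, 43.1 and 45.8 CPM in WT. Both genes overlapped between the groups. The 95% interval of the log2 change was -0.27 to 0.09 for Pcna, -0.18 to 0.20 for Mcm6, -0.19 to 0.33 for Mcm7 and -0.44 to 0.44 for Mcm2. Mcm3, the replication gene with the lowest CPM in KO and WT, had the widest interval, -0.71 to 0.44, and Mcm5 had -0.41 to 0.39. Mcm7 overlaps Cops6 and Ap4m1 on the opposite strand.

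All 6 tested cyclin and mitosis genes had estimates below 0, but apart from Top2a none passed an unadjusted p of 0.05. Ccnd2, the D-type cyclin of granule cell precursors, ran from 81.8 to 87.0 CPM in KO and from 90.6 to 94.7 CPM in WT, without overlap (-0.11 ± 0.06, edgeR adjusted p = 0.932). Ccna2, cyclin A of S phase and G2, ran from 1.07 to 1.63 CPM in KO and from 1.85 to 2.15 CPM in WT (-0.42 ± 0.34), and its span overlaps the more abundant Exosc9 (16.8 to 23.4 CPM) on the opposite strand. Mki67 had 9.02, 8.46 and 9.04 CPM in KO, against 8.5, 12.3 and 9.88 CPM in WT. The groups overlapped through WT M1, and the log2 change was -0.19 ± 0.16. Cenpf, a kinetochore protein, and Tacc3, a spindle protein, had -0.21 ± 0.44 and -0.07 ± 0.29. Cdk1 had 2 summed counts in KO and 3 in WT, and Ccnb1 4 in KO and 3 in WT, too few to show a difference at this depth.

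In CPM, 8 of the 30 tested genes had all KO libraries below all WT libraries, among them Emx2, Pax6, Ccnd2 and Ccna2, against 7.04% of all genes tested. No gene of the list had all KO libraries above WT, against 3.98% of all genes. These shares carry the same limit from the choice of the list. Over all genes this balance moved with the scaling: 49.5% of the unadjusted calls over all genes were higher in KO with TMM scaling and 34.4% when scaled by library totals. Dcx, Igfbpl1, Draxin and Top2a had an unadjusted p under 0.05 with both scalings. Igfbpl1, Draxin and Ccnd2 also had all 3 WT libraries above the other 9 libraries, as 1.11% of 15632 genes did, across tables that were deposited separately.

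Markers of other cells were read beside these differences. Of 8 Cajal-Retzius markers, genes of the early-born reelin cells near the molecular layer, 7 were tested and all 7 estimates were negative, 4 of them with an unadjusted p under 0.05, and none of the 8 was at 0 in a group. Their summed level was 100.1 to 107.7 CPM in KO and 131.4 to 141.5 CPM in WT, with a median log2 change of -0.34. Markers of mature granule cells summed to 3054.4 to 3330.5 CPM in KO and 3081.1 to 3287.5 CPM in WT. Oligodendrocyte precursors, which also divide, summed to 442.3 to 457.7 CPM in KO and 450.9 to 485.3 CPM in WT, and microglia to 316.1 to 346.1 CPM in KO and 342.8 to 349.6 CPM in WT. Meningeal fibroblast markers, a sign of the dissection, summed to 70.6 to 160.8 CPM in KO and 107.8 to 203.2 CPM in WT, with overlap. Of 10 such markers 8 were tested, with 7 negative estimates, a median of -0.48 and 1 unadjusted p under 0.05 (Slc13a4, at -1.12). Interneuron markers had 7 of 10 negative estimates and a median of -0.18. The part of these cells in the lower levels of Dcx, Igfbpl1, Draxin and Top2a was not tested.

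Further genes of neurogenesis and of the cell cycle were set beside the 34. Of 33 other neurogenesis genes, 30 were tested in KO against WT, with 2 lower and 1 higher at an unadjusted p under 0.05. Besides Sox1, these were the filament gene Vim (lower, -0.27 ± 0.11) and Gfap (higher, 0.16 ± 0.06), which is also among the astrocyte markers. Sox1, a SoxB1 factor of neural progenitors, was the gene called, with 5.06 ± 0.555 CPM in KO and 10.4 ± 2.4 CPM in WT (log2 change -1.03 ± 0.19, edgeR adjusted p = 0.0259). Of 49 other proliferation genes, 28 were tested, 17 of them with negative and 11 with positive estimates. Only Hmgb2, a chromatin protein of dividing progenitors, was past the unadjusted threshold, with 3.23 ± 0.599 CPM in KO and 5.18 ± 0.757 CPM in WT (-0.66 ± 0.23, edgeR adjusted p = 0.678). Their median estimate was -0.06.

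Promoters of the replication and mitosis genes are shown because both classes are known to be timed by promoter elements in dividing cells, S-phase genes by E2F elements and mitotic genes by the cell-cycle genes homology region (CHR). The 250 bases before the start given by RefSeq (GRCm38.p6) were read for the 26 of the 34 genes that the table holds. Shown are 2 helicase genes with E2F letters in capitals, and the topoisomerase and Ki-67 genes with CHR letters in capitals. Mcm5 is at chr8:75109259-75109508 on the plus strand, Mcm6 at chr1:128359706-128359955, Top2a at chr11:99024190-99024439 and Mki67 at chr7:135716380-135716629, all 3 on the minus strand.
Mcm5: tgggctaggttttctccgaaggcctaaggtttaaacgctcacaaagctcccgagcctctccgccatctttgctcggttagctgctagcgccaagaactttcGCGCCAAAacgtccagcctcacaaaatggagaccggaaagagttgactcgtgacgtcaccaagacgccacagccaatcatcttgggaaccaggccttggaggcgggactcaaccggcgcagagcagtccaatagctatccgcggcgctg
Mcm6: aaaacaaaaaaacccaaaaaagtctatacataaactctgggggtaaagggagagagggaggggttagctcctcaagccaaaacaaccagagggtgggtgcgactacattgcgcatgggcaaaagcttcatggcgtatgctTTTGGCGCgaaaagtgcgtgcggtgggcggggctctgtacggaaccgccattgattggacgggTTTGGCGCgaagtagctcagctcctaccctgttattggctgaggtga
Top2a: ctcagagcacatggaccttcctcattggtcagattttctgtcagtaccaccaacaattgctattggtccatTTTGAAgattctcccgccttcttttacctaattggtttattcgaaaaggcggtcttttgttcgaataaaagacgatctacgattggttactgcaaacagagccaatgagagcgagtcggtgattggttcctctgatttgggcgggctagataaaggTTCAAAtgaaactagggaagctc
Mki67: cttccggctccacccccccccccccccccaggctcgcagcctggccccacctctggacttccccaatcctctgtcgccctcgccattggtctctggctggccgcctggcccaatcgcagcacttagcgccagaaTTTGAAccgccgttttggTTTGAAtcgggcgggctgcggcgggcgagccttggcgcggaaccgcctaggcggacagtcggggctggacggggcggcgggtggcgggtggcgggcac

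The E2F search used TTTGGCGC, TTTCCCGC and TTTGGCGG, and the CHR search TTTGAA, each on both strands. E2F letters were present in 3 of 6 replication genes (Mcm5, Mcm6 and Mcm7), in 0 of 6 cyclin and mitosis genes with a promoter, and in 1.99% of 27025 genes. CHR letters were present in 3 of those 6 cyclin and mitosis genes (Cdk1, Mki67 and Top2a), in 1 of the 6 replication genes (Mcm2), and in 18.3% of all genes. Elsewhere in the list, Hopx also held E2F letters, and Sox11 and Elavl4 held CHR letters. Mcm6 held its E2F letters 110 and 47 bases before the start, Top2a its CHR letters 179 and 23 bases before, and Mki67 116 and 98 bases before. The CCAAT pentamer, also counted on both strands, stood in 21 of the 26 genes with a promoter and in 37.5% of all genes. A gene counted if any of its promoters held the letters, with 37 promoters for the 26 genes and 32851 for all 27025. Top2a and Mki67 both hold CHR letters, and their log2 changes in KO were -1.10 ± 0.36 and -0.19 ± 0.16; the difference between these genes was not tested.

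**Figure D2:**
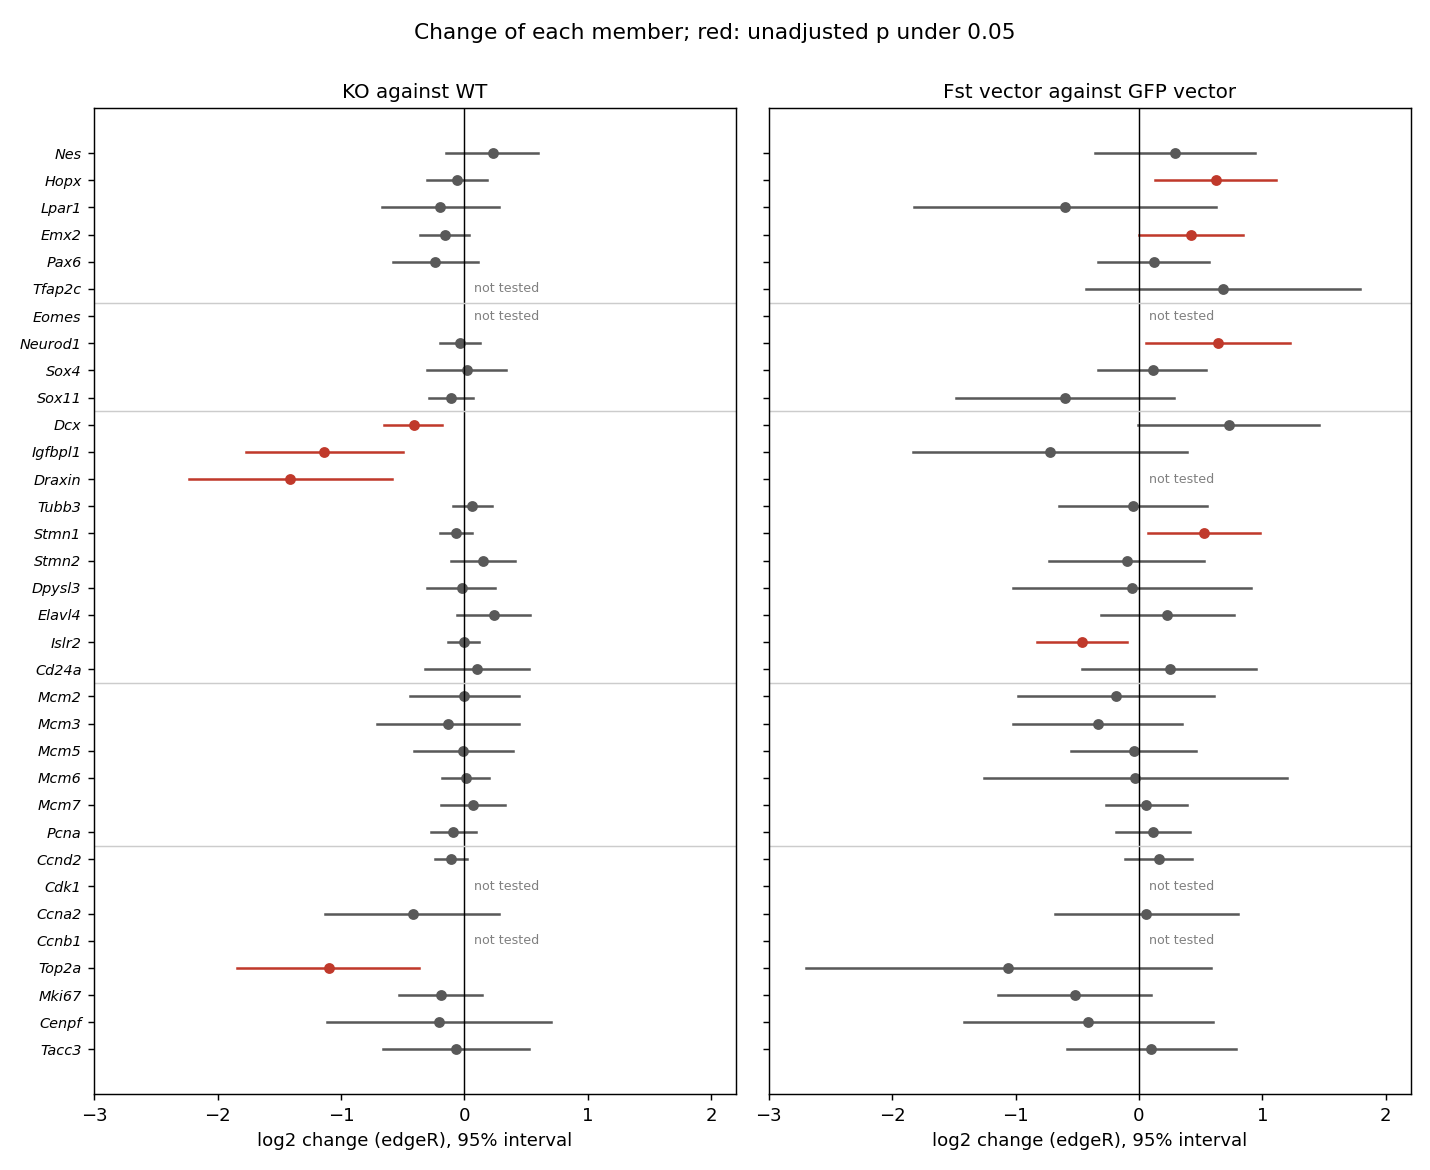
Log2 changes with 95% intervals from edgeR for the 34 genes, KO over WT on the left and Fst vector over GFP vector on the right, in the order of their roles; red marks an unadjusted p under 0.05 and genes without a point did not pass the filter on low counts. Dcx, Igfbpl1, Draxin and Top2a are the red points on the left, and Hopx, Emx2, Neurod1, Stmn1 and Islr2 those on the right.

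In the vector comparison, the 5 genes past an unadjusted p of 0.05 were stem cell and neuronal genes. Hopx, Emx2, Neurod1 and Stmn1 were higher with the Fst vector by a factor of 1.34 to 1.56, Islr2 was lower at 0.726 of the GFP vector level, and no replication or mitosis gene passed an unadjusted p of 0.05. Again 30 of the 34 genes were tested, without Eomes, Draxin, Cdk1 and Ccnb1. None passed the adjusted threshold of edgeR's quasi-likelihood test, which 12 of 15034 genes did (0.0798%), and none was called by DESeq2. At an unadjusted p under 0.05, 4 of 30 were higher, against 4.34% of all genes, and 1 was lower, against 5.16%; DESeq2 also had 4 higher and 1 lower, with Dcx in place of Emx2. In CPM, all Fst vector libraries lay above all GFP vector libraries for 2 genes (Hopx and Neurod1), against 10.5% of all genes, and below for 1 (Islr2), against 6.01%, which leaves the list near or under the background. Over all genes, 45.7% of unadjusted calls were higher with TMM scaling and 56.8% with scaling by library totals.

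Hopx (chr5:77086988-77115121) had 66.4, 52.5 and 54.0 CPM in Fst vector M1, M2 and F, against 37.1, 47.2 and 25.5 CPM in GFP vector M1, M2 and F. The groups did not overlap, and GFP M2 came closest to the Fst vector libraries. For Hopx the log2 change was 0.62 ± 0.22 with a 95% interval of 0.13 to 1.11 (edgeR adjusted p = 0.421). Libraries with a low share of ribosomal RNA gave a ratio of Fst vector to GFP vector of 2.12 (1 against 2), the others 1.13 (2 against 1).

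Neurod1 (chr2:79452521-79456751) had 57.2, 56.8 and 48.0 CPM in the Fst vector libraries, against 45.5, 35.0 and 21.0 CPM in the GFP vector libraries. The lowest value, in GFP F, was also the lowest of all 12 libraries. Across separately deposited tables, KO and WT ran from 45.7 to 52.5 CPM. Fst M1 and M2 lay above that range, Fst F within it and GFP M1 just below it. The log2 change was 0.64 ± 0.25 (edgeR adjusted p = 0.482), and 0.39 without GFP F. The span of Neurod1 overlaps Cerkl on the same strand (3.04 to 7.09 CPM).

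Emx2 (chr19:59458372-59465357) had 33.4, 33.7 and 25.9 CPM in the Fst vector libraries, against 27.7, 20.8 and 19.3 CPM in the GFP vector libraries. Fst F lay below GFP M1, so the groups overlapped. Stmn1 (chr4:134468320-134473843) had 269.7, 203.8 and 164.6 CPM in the Fst vector libraries, against 142.0, 169.3 and 121.7 CPM in the GFP vector libraries, with Fst F below GFP M2. The log2 changes were 0.42 ± 0.19 for Emx2 (edgeR adjusted p = 0.526) and 0.53 ± 0.20 for Stmn1 (edgeR adjusted p = 0.45). For Stmn1 the value without Fst M1 was 0.31, and both vector groups stood above the 88.5 to 103.0 CPM of KO and WT, across separately deposited tables.

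Islr2 (chr9:58196297-58204319) had 217.6, 183.2 and 177.9 CPM in the Fst vector libraries, against 230.3, 234.8 and 312.9 CPM in the GFP vector libraries. The groups did not overlap, with GFP F far above the rest. The log2 change was -0.46 ± 0.16 (edgeR adjusted p = 0.413), and -0.31 without GFP F. The span of Islr2 also holds Islr on the same strand (24.2 to 41.6 CPM).

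Dcx had 16.2, 26.1 and 35.1 CPM in the Fst vector libraries, against 9.9, 19.7 and 15.7 CPM in the GFP vector libraries. Fst F was the highest and GFP M1 the lowest of all 12 libraries, but Fst M1 lay below GFP M2, so the groups overlapped. For Dcx the log2 change was 0.73 ± 0.32 with a 95% interval of -0.01 to 1.46 (edgeR adjusted p = 0.53). Libraries of the same name gave ratios of Fst vector to GFP vector of 1.64 for M1, 1.33 for M2 and 2.23 for F.

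Same-named libraries of the vector groups deviated together over all genes, and a fit with the name as a block moved the counts. No label states a pairing, and the deviations of Fst M2 correlated with those of GFP M1 (0.119) nearly as with GFP M2 (0.138). With this replicate block 141 of 15034 genes were called (0.938%), still with none of the 30 genes. At an unadjusted p under 0.05, 5 of the 30 were higher, against 6.77% of all genes, and 3 were lower, against 7.54%. Dcx joined the higher genes (0.72 ± 0.18, blocked edgeR adjusted p = 0.124, with adjusted p from 0.124 to 0.893 over 16 alternative fits). Sox11 and Mki67 joined the lower ones, at -0.55 ± 0.16 (blocked edgeR adjusted p = 0.165) and -0.51 ± 0.22 (blocked edgeR adjusted p = 0.342).

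Sox11 had 42.9, 41.0 and 71.4 CPM in the Fst vector libraries, against 44.3, 71.9 and 112.8 CPM in the GFP vector libraries. The F libraries were the highest of their groups. Fst M1, Fst M2 and GFP M1 lay within the 38.8 to 48.4 CPM of KO and WT, across separately deposited tables. Mki67 had 4.52, 7.39 and 7.31 CPM in the Fst vector libraries, against 7.05, 8.28 and 11.4 CPM in the GFP vector libraries, overlapping between Fst M2, Fst F and GFP M1. Top2a had 0.589, 1.42 and 0.886 CPM in the Fst vector libraries, against 0.495, 1.17 and 4.1 CPM in the GFP vector libraries. Its log2 change of -1.06 ± 0.72 rested on GFP F and was 0.13 without it. Igfbpl1 lay under every WT library in both vector groups, across separately deposited tables, at 0.884, 0.709 and 1.11 CPM in the Fst vector libraries, against 0.619, 1.56 and 2.1 CPM in the GFP vector libraries (-0.72 ± 0.49). Draxin had 19 summed counts with the Fst vector and 34 with the GFP vector, a ratio of 0.554 (exact 95% interval 0.298 to 0.999, for counting error alone and not the spread of 0.619 to 1.72 CPM among the GFP vector libraries). Eomes had 8, 2 and 8 counts in the Fst vector libraries, against 3, 1 and 1 counts in the GFP vector libraries, an overlapping pair of groups with a summed ratio of 3.57 (1.28 to 12.3, again for counting error alone).

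**Figure D3:**
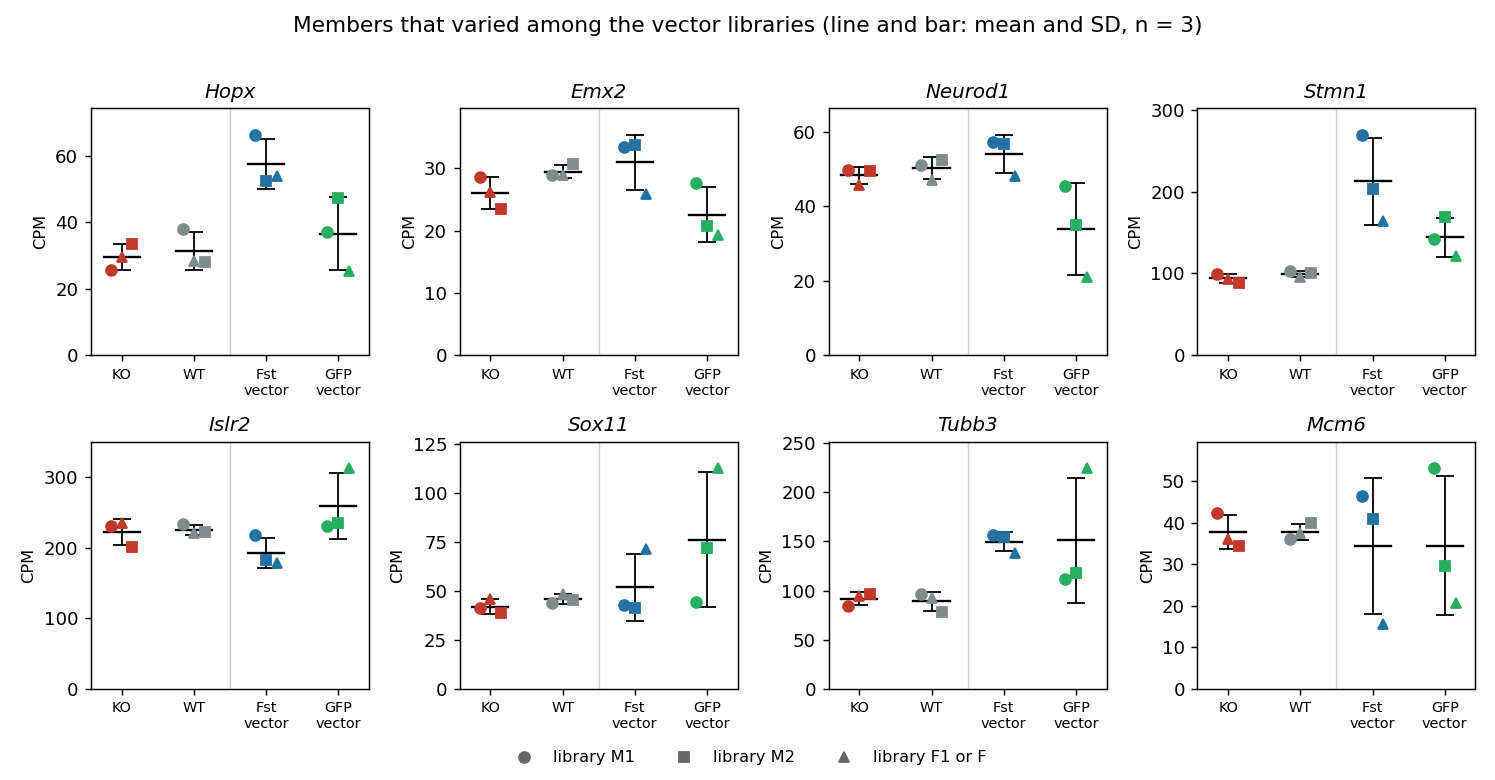
CPM (linear axes from 0) in each of the 12 libraries for 8 genes, with KO left of WT and the Fst vector left of the GFP vector; points are libraries, lines and bars the mean and SD of 3. The Fst vector points of Hopx and Neurod1 lie above and those of Islr2 below all GFP vector points, and the F library of the GFP vector group (triangle) is highest for Islr2, Sox11 and Tubb3 and lowest for Hopx, Emx2 and Neurod1.

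The GFP F library took many of the extremes of the list. Of 29 genes tested in both comparisons it was the highest of 12 libraries for 11 (Nes, Lpar1, Sox11, Tubb3, Stmn2, Dpysl3, Islr2, Mcm2, Mcm3, Top2a and Cenpf) and the lowest for 4 (Hopx, Emx2, Neurod1 and Ccnd2). Over 14576 genes it was the highest for 16.8% and the lowest for 17.6%. Vim, the filament vimentin of stem cells and reactive glia, was at 44.9 to 60.8 CPM with the Fst vector, against 25.7 and 69.5 CPM in GFP M1 and M2 and 358.4 CPM in GFP F. Other astrocyte markers were split in GFP F. Aqp4 (364.2 CPM), Aldh1l1, Slc1a2, Sox9 and Fgfr3 were the highest of the GFP vector group there. Slc1a3 (462.2 CPM), Aldoc (538.8 CPM) and Gja1 (142.3 CPM) were the lowest of that group, and S100b lay between. The part of these glial transcripts in the values of the list was not tested.

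Tubb3 had 156.6, 154.1 and 138.6 CPM in the Fst vector libraries, against 111.7, 117.5 and 224.7 CPM in the GFP vector libraries. All Fst vector values lay between GFP F and the other GFP vector libraries, and the log2 change of -0.05 ± 0.26 turned to 0.35 without GFP F (edgeR adjusted p = 0.609). Mcm6 had 46.6, 40.9 and 15.6 CPM in the Fst vector libraries, against 53.2, 29.6 and 20.6 CPM in the GFP vector libraries. Here the F libraries were the lowest of their groups. Both F libraries and GFP M2 lay under the 34.5 to 42.5 CPM of KO and WT, across separately deposited tables, and both M1 libraries lay above it. The interval of the log2 change, -1.26 to 1.20, was wide. Mcm2 had 5.01, 5.16 and 3.43 CPM in the Fst vector libraries, against 3.84, 3.6 and 7.63 CPM in the GFP vector libraries, with overlap. Pcna had 53.1, 51.1 and 47.3 CPM in the Fst vector libraries, against 51.3, 41.3 and 44.1 CPM in the GFP vector libraries, also with overlap. Pcna and Mcm7 had the narrowest intervals among replication genes, -0.19 to 0.41 and -0.27 to 0.39. Nes had 9.72, 7.7 and 8.63 CPM in the Fst vector libraries, against 5.57, 5.16 and 10 CPM in the GFP vector libraries (0.29 ± 0.29, and 0.66 without GFP F).

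The remaining genes overlapped between the vector groups. Pax6, Sox4, Elavl4, Cd24a, Ccnd2, Ccna2 and Tacc3 had positive log2 changes of 0.06 to 0.25, Tfap2c 0.68 ± 0.49, and Lpar1, Stmn2, Dpysl3, Mcm3, Mcm5 and Cenpf negative ones of -0.60 to -0.04. Cdk1 had 4 summed counts with the Fst vector and 12 with the GFP vector, 10 of those 12 in GFP F. Ccnb1 had 6 summed counts with the Fst vector and 7 with the GFP vector.

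Among other cell types, the 10 microglia markers all had negative estimates, 4 of them with an unadjusted p under 0.05, and summed to 353.9 to 462.9 CPM in the Fst vector group and 414.0 to 587.4 CPM in the GFP vector group. Oligodendrocyte markers summed to 1606.2 to 1931.8 CPM in the Fst vector group and 1200.8 to 1426.9 CPM in the GFP vector group. Astrocyte markers, in whose cells Hopx is also expressed, summed to 4193.1 to 5071.8 CPM in the Fst vector group and 3994.0 to 8911.3 CPM in the GFP vector group. The highest sum, in GFP F, held 4863.7 CPM of Gfap. Of the 10 astrocyte markers 5 had positive and 5 negative estimates (median 0.01), with 1 higher and 0 lower at an unadjusted p under 0.05. For Gja1 all Fst vector libraries (177.1 to 208.0 CPM) lay above all GFP vector libraries (142.3 to 162.5 CPM). Mature granule cell markers had 8 of 13 negative estimates with a median of -0.33, 3 lower and 2 higher at an unadjusted p under 0.05, and summed to 2532.0 to 2959.4 CPM in the Fst vector group and 2245.0 to 3585.9 CPM in the GFP vector group. Positive estimates were given by all 7 mossy cell markers (median 0.28), 7 of 10 interneuron markers (median 0.28) and 9 of 10 endothelial and mural cell markers (median 0.22). The part of these cells in the values of Hopx, Emx2, Neurod1, Stmn1 and Islr2 was not tested. Of the 33 other neurogenesis genes, 31 were tested, with 4 lower and 2 higher at an unadjusted p under 0.05 and 0 called. Neurod2, a factor of maturing neurons, had the smallest p of these, with 131.3 ± 50 CPM in the Fst vector group and 407.8 ± 107.8 CPM in the GFP vector group (-1.67 ± 0.31, edgeR adjusted p = 0.158). Of the 49 other proliferation genes, 34 were tested, with 2 lower (Rrm2 at -1.03 ± 0.43 and Aurka at -0.95 ± 0.41) and 0 higher at an unadjusted p under 0.05.

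**Figure D4:**
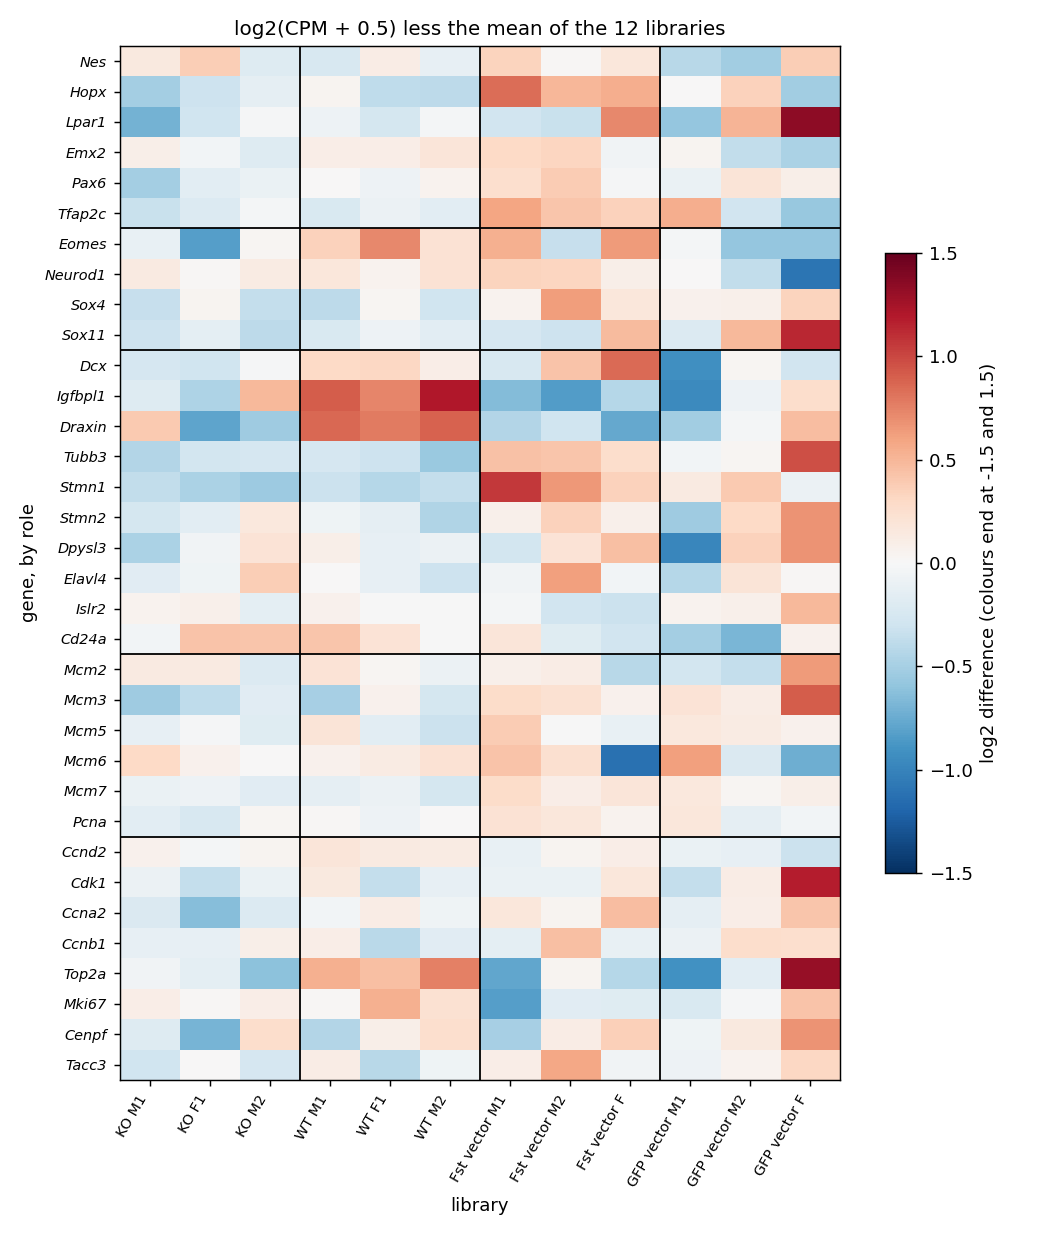
Level of each of the 34 genes in each of the 12 libraries, as the log2 difference of CPM plus 0.5 from the gene's mean over all libraries, with colours limited at 1.5 either way. The KO columns are paler or bluer than the WT columns for Igfbpl1, Draxin and Top2a, and the GFP F column holds many of the extremes.

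The knockout and vector comparisons share no library, and a fit of all 12 libraries tested the difference of their effects, the log2 change of Fst vector over GFP vector minus that of KO over WT. It called 44 of 15632 genes (0.281%) and none of the 31 genes of the list that were tested, also with DESeq2. At an unadjusted p under 0.05, 5 of the 31 were higher, against 4.31% of all genes, and 1 was lower, against 5.65%. Dcx had the smallest p, with a difference of 1.13 ± 0.36 on the log2 scale (edgeR adjusted p = 0.277), for effects of 0.73 with the Fst vector and -0.41 in KO. Emx2 (0.57 ± 0.21), Stmn1 (0.59 ± 0.22), Hopx (0.68 ± 0.28) and Neurod1 (0.67 ± 0.28) were the other higher genes, and Islr2 (-0.47 ± 0.18) the lower one. This fit takes no account of a possible pairing of vector libraries by name, which no label states. It also shares each gene's spread over all 12 libraries. Replicates differed more in the vector groups (chi-square per degree of freedom 9.67 to 31.5) than in KO and WT (2.39 to 9.0). With the spread shared in this way, the vector comparison called 412 genes instead of 12, and KO against WT called 1 instead of 4. With a replicate block in the vector libraries, an alternative chosen after seeing the data, 585 of 15632 genes (3.74%) and 3 of the 31 were called. They were Dcx (1.13 ± 0.20, blocked edgeR adjusted p = 0.00389), Neurod1 (0.72, blocked edgeR adjusted p = 0.0228) and Stmn1 (0.57, blocked edgeR adjusted p = 0.0335). With a block in both tables, 289 genes (1.85%) were called and Dcx alone of the list (blocked edgeR adjusted p = 0.0241). Over 19 alternative fits the adjusted p of Dcx was 0.00389 to 0.52. Neurod1 was also called without GFP M1 (0.96, edgeR adjusted p = 0.0465), with adjusted p from 0.0228 to 0.662 over the same fits. For Igfbpl1, Draxin and Top2a the differences were 0.40 ± 0.61, 0.54 ± 0.70 and 0.03 ± 0.88, with intervals that include 0. Of the 29 genes tested in both comparisons, 13 had estimates of opposite sign.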

How the data were processed

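Raw read counts by Ensembl gene were deposited, per the file headers, as a table for KO and WT and another for the vector groups, which were normalized and tested separately. The submitters' processing notes name GRCm38 as the build. Aligner, counting tool and strand handling: not given in the sources used here. The GENCODE annotation of GRCm38 supplied symbols, coordinates and exon lengths and held 52489 of 52636 gene IDs. Lines naming no gene (12 and 6) held no counts and were left out. CPM used library totals, and TPM exon lengths. No 2 replicates agreed within sampling noise (chi-square per degree of freedom 2.39 to 31.5).

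Tests were edgeR's quasi-likelihood F test (R 4.3.3, edgeR 4.0.16) after filterByExpr and TMM scaling, with Benjamini-Hochberg adjustment at 0.05 over all genes. DESeq2 1.42.0 was an alternative. The fitting code was also run on simulated counts with known changes, whose spread was not taken from these libraries. The genes and lists were chosen with earlier results of these data known. Values in every library are given for genes called in any fit, for the 4 smallest p of each comparison and for usual stage markers; others are summarised. The libraries without overlap were counted on CPM.

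Same-named libraries of the vector groups correlated in their deviations from group means (0.325 for M1, 0.138 for M2, 0.39 for F), all above 0.1. Fits with the name as a block were run only as alternatives, and the main fits used no block. No label states this pairing, and Fst M2 with GFP M1 also reached 0.119. Between KO and WT the values were 0.0607 for M1, 0.13 for F1 and -0.0805 for M2, and the main fit assumed no pairing there either.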

Additional observations from a re-analysis of the deposited data

How the results depend on the processing

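Of 1547 log2 changes of the 34 genes under alternatives, 1399 kept their direction, their side of the adjusted threshold and their value within 1 SE, 28 moved by more than 1 SE, 5 crossed the threshold, all in the difference of the effects (Dcx with both blocks, Neurod1 and Stmn1 with the vector block, Neurod1 without GFP M1), and 115 changed sign. All 136 group levels moved by less than 1 SD with TMM library sizes.

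In KO against WT the sign changed for Mcm6 with scaling by library totals (-0.01), for Islr2 (0.00) and Mcm2 (0.01) with the ribosomal RNA share as a term, and for Islr2 (0.06), Mcm2 (0.11) and Mcm5 (0.00) in libraries low in ribosomal RNA. Between the vector groups it changed for Mcm6 with library totals (0.00), Tubb3 (0.03) and Dpysl3 (0.05) with the block, Tubb3 with sex (0.03), and Tubb3 (0.07), Mcm5 (0.01) and Mcm6 (0.10) with the ribosomal RNA term. In libraries low in ribosomal RNA it changed for Sox4 (-0.17), Mcm5 (0.27), Mcm6 (0.32), Ccna2 (-0.02) and Tacc3 (-0.06). In the difference it changed for Dpysl3 (0.02), Elavl4 (0.05), Mcm5 (0.02), Mcm6 (0.02) and Mcm7 (0.05) with library totals, Elavl4 (0.01) and Mcm7 (0.01) with no filter, and Dpysl3 with a block in the vector libraries (0.05) or in both tables (0.07). Ranges over left-out libraries that include a change of sign were, for KO against WT, Hopx -0.16 to 0.09, Dpysl3 -0.19 to 0.14, Mcm5 -0.14 to 0.16, Mcm6 -0.08 to 0.07, Tacc3 -0.21 to 0.07, Sox4 -0.14 to 0.17, Cenpf -0.63 to 0.09, Islr2 -0.05 to 0.07, Mcm2 -0.09 to 0.12, Mcm3 -0.27 to 0.05, Tubb3 -0.03 to 0.13, Cd24a -0.02 to 0.25. For the vector groups they were Mcm6 -0.33 to 0.43, Ccna2 -0.09 to 0.25, Dpysl3 -0.41 to 0.28, Lpar1 -1.06 to 0.00, Tubb3 -0.22 to 0.35, Stmn2 -0.36 to 0.19, Mcm2 -0.39 to 0.25, Mcm3 -0.50 to 0.00, Top2a -1.48 to 0.13, Sox4 -0.08 to 0.21, Elavl4 -0.02 to 0.36, Mcm5 -0.23 to 0.06, Tacc3 -0.12 to 0.25. For the difference they were Mcm6 -0.34 to 0.42, Mcm7 -0.07 to 0.04, Mcm5 -0.23 to 0.08, Nes -0.13 to 0.43, Dpysl3 -0.38 to 0.30, Elavl4 -0.26 to 0.18, Top2a -0.38 to 1.22, Cenpf -0.51 to 0.21, Sox4 -0.11 to 0.23, Cd24a -0.03 to 0.45, Lpar1 -0.88 to 0.18, Tubb3 -0.29 to 0.28, Stmn2 -0.51 to 0.04, Mcm2 -0.40 to 0.25, Mcm3 -0.39 to 0.14, Tacc3 -0.07 to 0.31.

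Genes called in KO against WT were 46 with no filter on low counts, 23 with a replicate block, 30 with sex as a term, 1 with the spread shared over 12 libraries and 20 in the libraries low in ribosomal RNA, an alternative chosen after seeing the data. They were 250 for the vector groups with DESeq2, 230 with no filter, 141 with a replicate block, 132 with sex, 7 with the ribosomal RNA share as a term, 412 with shared spread and 0 in libraries low in ribosomal RNA, and for the difference of the effects 246 with DESeq2, 210 with no filter, 585 with a replicate block in the vector libraries and 289 with a block in both tables, with 3 and 1 of the 34 genes called by these blocks. Members past an unadjusted p of 0.05 were 2 in KO against WT with shared spread (Igfbpl1 and Draxin), and for the vector groups 8 with the block and 2 in libraries low in ribosomal RNA. The cause was not tested.

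Leaving out each library in turn gave 2 to 17 genes called and 4 to 6 members past the unadjusted threshold in KO against WT, 1 to 29 and 2 to 9 between the vector groups, and 13 to 183 and 4 to 10 for the difference, with 0 members called in both comparisons and 0 to 1 in the difference. Depth limits Eomes, Cdk1, Ccnb1, Tfap2c and Draxin, whose counts fell under the filter in at least 1 comparison.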
